A study of Mus musculus with 4 samples.

Results

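The 10 genes described here are Snai1, Snai2, Twist1, Zeb1 and Zeb2, which encode transcription factors of the epithelial-mesenchymal transition (EMT), and Cdh1, Epcam, Cdh2, Fn1 and Vim, which encode adhesion, matrix and filament proteins that change in it. They were chosen by symbol and are 10 of 21523 protein-coding genes of the RefSeq table (GRCm38.p6, the assembly that mm10 denotes). Every MIXL1 peak within 100 kb of a gene's span was taken, which gave 12 of the 9598 peaks deposited for the series, and the nearest peak was found for every gene. The span runs from the first to the last annotated base of a gene.

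The series holds 2 libraries precipitated with the anti-FLAG M2 antibody and 2 input libraries, all made from mouse epiblast stem cells, which are pluripotent cultures resembling the post-implantation epiblast. The cells of all 4 libraries carried a Mixl1 gene that doxycycline switches on, and were kept on an irradiated fibroblast feeder layer in activin A (20 ng/mL) and bFGF (10 ng/mL). Serum differentiation followed, and embryoid bodies were collected on day 2 after 24 h in doxycycline at 1 µg/mL. The protein mapped is thus FLAG-tagged MIXL1 made from an induced gene, and cells without doxycycline were not analysed here. One list of positions stands for all 4 libraries, with no height, score or p-value per peak. Values therefore carry no replicate error, depth is unknown, and no gene expression was measured, so neither the cell identity nor the activity of a gene can be checked.

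In EMT, epithelial cells give up their junctions and become migratory, and in the embryo this happens as epiblast cells pass through the primitive streak. SNAI and ZEB proteins are zinc-finger repressors that bind E-boxes and silence epithelial genes such as Cdh1, while N-cadherin, fibronectin and vimentin mark the mesenchymal state. MIXL1 is a paired-type homeodomain protein of the streak, and such proteins bind a TAAT core, often as inverted pairs.

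Zeb2 and Fn1 had 3 peaks each within 100 kb and Zeb1 had 2, and these were the 3 genes with a peak over the gene itself. Snai2, Twist1, Cdh1 and Epcam had 1 peak each, all outside the gene. Snai1, Cdh2 and Vim had none. In all, 7 of the 10 genes had a peak within 100 kb, against 52.8% of all protein-coding genes, so the count lies little above the background. The counts were 5 of 10 within 50 kb, against 37.5%, and 10 of 10 within 200 kb, against 70.3%. At least 2 peaks within 100 kb were found for 3 of the 10, against 26.7%. A peak lay over the span in 3 of 10 genes, against 12.6% of all genes. Of these 3 genes 2 were over 100 kb long, a class in which 46.9% of genes had a peak over the span.

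**Figure D1:**
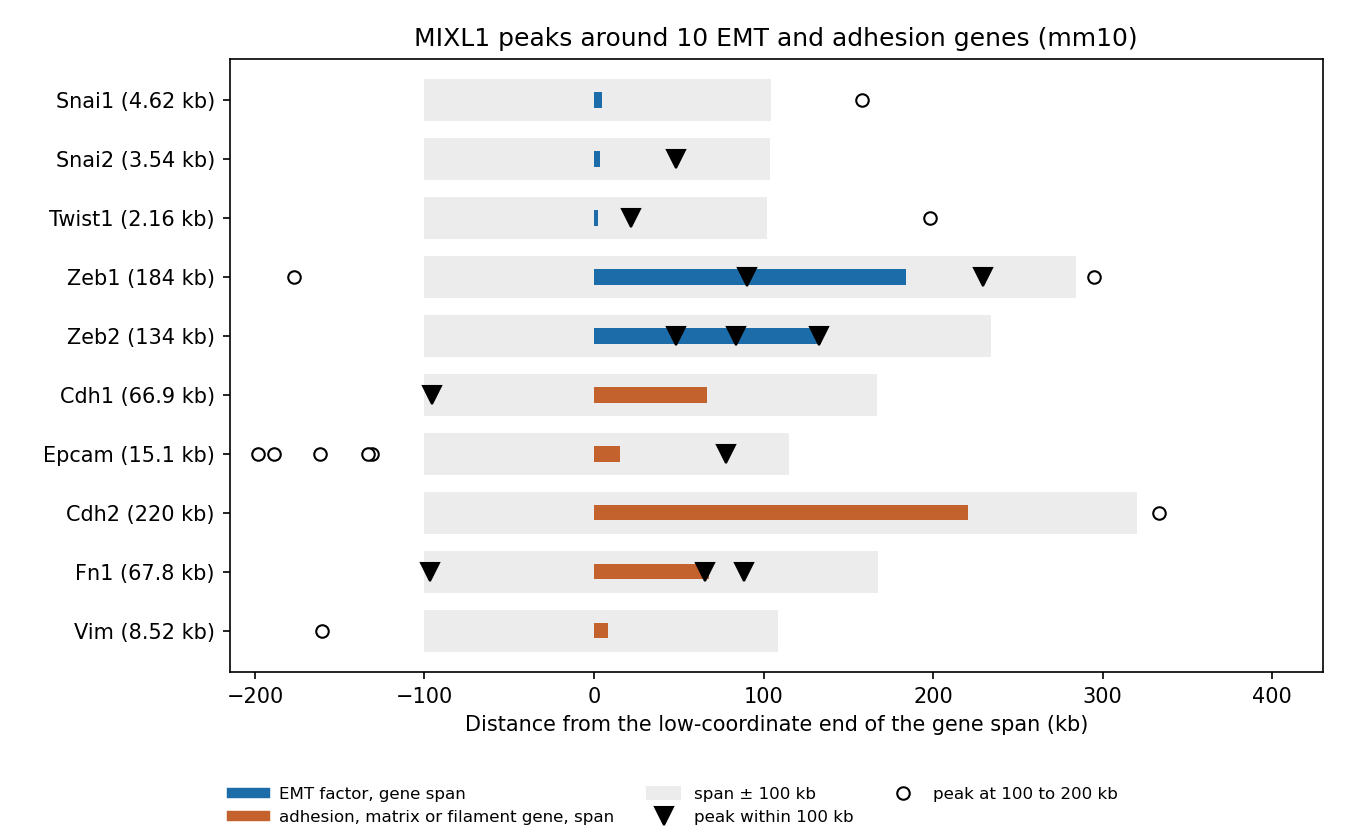
Peaks around the 10 genes, by distance in kb from the low-coordinate end of each span, with the span as a bar and its length beside the name. Filled triangles are the 12 peaks within 100 kb and open circles are peaks at 100 to 200 kb; Zeb2 carries 3 triangles over its span, and Snai1, Cdh2 and Vim have circles only.

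Zeb2, which encodes a ZEB repressor (chromosome 2, 44983512 to 45117442, 134 kb), held its 3 peaks inside the gene. They lay at 45031645 to 45032495, 45067223 to 45067561 and 45115772 to 45116175, with widths of 851, 339 and 404 bp and gaps of 34.7 and 48.2 kb between them. At least 3 peaks over the span were found in 291 of the 2425 protein-coding genes longer than 100 kb, the length class of Zeb2, and in 1.67% of genes of any length. The last peak sat near the start of the gene. RefSeq gives 4 transcription starts for Zeb2 on the minus strand, and this peak lay 1.27 kb downstream of the outermost (start 1) and 2.49, 2.52 and 5.50 kb upstream of the next ones (starts 2, 3 and 4). A peak within 2 kb of an annotated start was found in 4.14% of the 17274 protein-coding genes with a promoter entry. Zeb2 was the one gene of the 5 with such entries (Snai1, Zeb2, Vim, Twist1 and Epcam) that met this distance.

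The windows around the Zeb2 starts are shown because they flank that peak. Each is the RefSeq sequence from 250 bases before to 50 after a start (GRCm38.p6, minus strand, 5′ to 3′), with TAAT or its complement ATTA in capitals. The window of start 3 overlaps that of start 2 and is not printed. No window overlaps the peak itself, whose own sequence was not used here.
Zeb2 start 1, chr2:45117393-45117692: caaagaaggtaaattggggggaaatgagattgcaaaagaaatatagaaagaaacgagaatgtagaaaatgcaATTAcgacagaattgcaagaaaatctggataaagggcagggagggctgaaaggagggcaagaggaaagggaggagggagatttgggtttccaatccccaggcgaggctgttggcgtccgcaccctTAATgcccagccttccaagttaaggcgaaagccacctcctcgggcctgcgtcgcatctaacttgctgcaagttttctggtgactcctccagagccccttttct
Zeb2 start 2, chr2:45113230-45113529: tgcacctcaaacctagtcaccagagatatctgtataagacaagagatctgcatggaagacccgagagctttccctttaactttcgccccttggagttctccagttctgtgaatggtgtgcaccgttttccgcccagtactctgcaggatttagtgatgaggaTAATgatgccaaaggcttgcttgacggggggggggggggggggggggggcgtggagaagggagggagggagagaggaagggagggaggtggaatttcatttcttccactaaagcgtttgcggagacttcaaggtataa
Zeb2 start 4, chr2:45110228-45110527: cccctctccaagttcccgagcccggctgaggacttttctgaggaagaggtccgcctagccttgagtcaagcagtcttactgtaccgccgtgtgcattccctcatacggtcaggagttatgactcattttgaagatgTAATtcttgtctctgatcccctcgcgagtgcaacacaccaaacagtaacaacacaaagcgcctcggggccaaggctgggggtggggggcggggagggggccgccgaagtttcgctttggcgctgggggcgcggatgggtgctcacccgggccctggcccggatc

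The 4 Zeb2 windows held 2, 1, 2 and 1 matches to TAAT on either strand, and those of starts 2 and 3 share 1 of them. At least 1 such match occurs in 58.0% of the 32851 RefSeq promoter windows of the same length, so these matches are common. The single window of Vim had 1 match, and those of Snai1, Twist1 and Epcam had none. None of the 8 windows held an inverted pair, TAAT and ATTA in that order with 2 or with 3 bases between them, which contains TAAT matches and occurs in 0.39% (2 bases) and 0.487% (3 bases) of all windows. The E-box CAGGTG (or CACCTG), the site of SNAI and ZEB proteins, occurred 2 times in the Epcam window and 1 time in that of Snai1. It was in none of the Zeb2, Vim and Twist1 windows and in 20.2% of all windows.

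Zeb1, the other ZEB repressor (chromosome 18, 5591327 to 5775468, 184 kb), had 1 peak of 349 bp near the middle of the gene, at 5681363 to 5681711, 90.0 kb from the low end and 93.8 kb from the high end. A wider peak of 972 bp, at 5820043 to 5821014, lay 44.6 kb beyond the high end. A width at least as large was found for 13.4% of all peaks. Both peaks had Zeb1 as the nearest protein-coding gene, and no other protein-coding gene lay within 100 kb of either. Another peak stood just outside the limit at 111 kb on the same side.

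Snai2, which encodes the SNAI repressor also called Slug (chromosome 16, 14705852 to 14709395), had 1 peak of 699 bp at 14753584 to 14754282, 44.2 kb from the gene. This peak stood alone: the next one was 787 kb away, and 1.87% of all peaks were as far from their neighbour. Snai2 was also the only protein-coding gene within 100 kb of it. A peak as near or nearer was found for 35.3% of all protein-coding genes and for 29.2% of those on chromosome 16.

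Snai1, the other SNAI repressor and an early one in the streak (chromosome 2, 167538195 to 167542814), had no peak within 100 kb. Its nearest was a narrow peak of 284 bp at 167695845 to 167696128, 153 kb away and 5.41 kb from Cebpb. Thus 63.4% of protein-coding genes had a peak nearer than or as near as that of Snai1.

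Twist1, a basic helix-loop-helix factor of mesenchyme (chromosome 12, 33957671 to 33959831), had 1 peak of 800 bp at 33979019 to 33979818. It lay 19.2 kb from the gene and 21.3 kb downstream of the start, with Twist1 as the nearest protein-coding gene. Chromosome 12 is dense in peaks, at 13.2 per Mb against 3.66 per Mb over all 20 chromosomes that carried peaks, and 91.2% of its genes had a peak within 100 kb. Of its genes 58.7% had a peak as near as that of Twist1, against 24.3% of genes overall. The Twist1 window, at 4.95 peaks per Mb, was sparser than its chromosome.

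**Figure D2:**
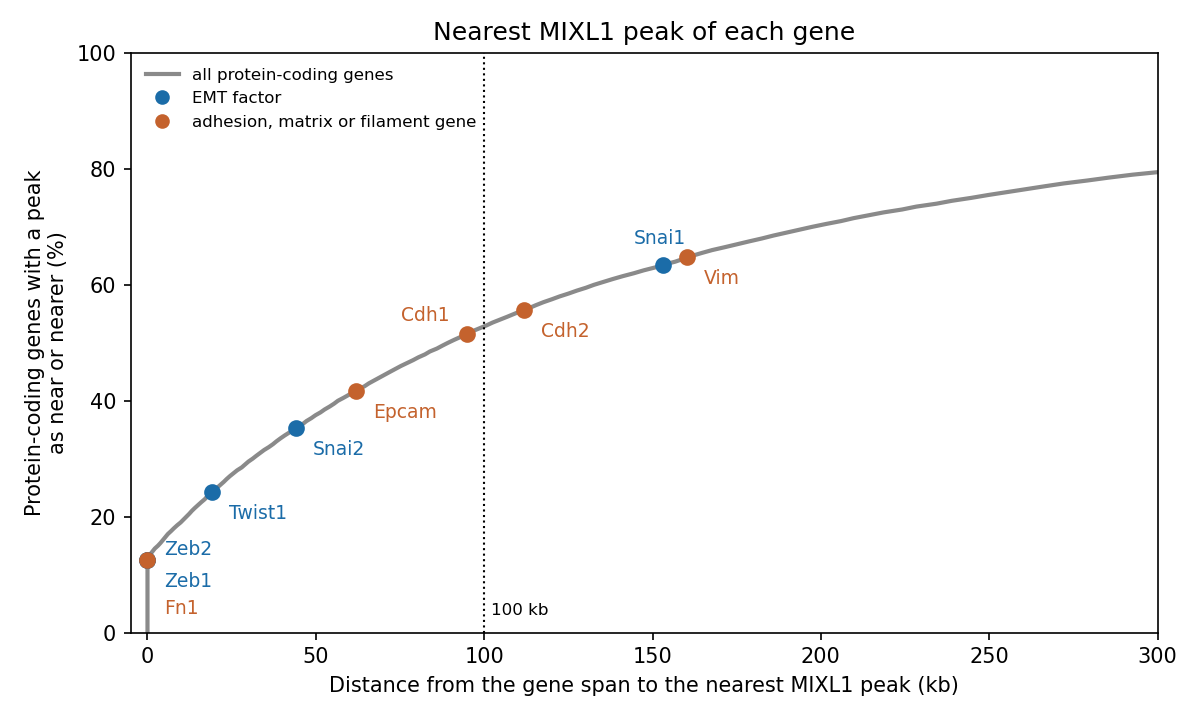
Share of protein-coding genes (%) with a MIXL1 peak as near as or nearer than a given distance from the span (kb), as a grey line, with the 10 genes placed on it. Zeb1, Zeb2 and Fn1 sit at 0 kb, the class of 12.6% of genes, and Snai1, Cdh2 and Vim lie beyond the dotted 100 kb limit.

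Among the adhesion and matrix genes, Fn1, which encodes the matrix glycoprotein fibronectin (chromosome 1, 71585473 to 71653280, 67.8 kb), had the nearest peaks. A peak of 559 bp at 71650657 to 71651215 lay over the gene, 2.07 kb inside its high-coordinate end. The second, of 617 bp at 71673593 to 71674209, was 20.3 kb beyond that end, over the predicted gene Gm46094. The last, of 398 bp at 71488608 to 71489005, was 96.5 kb away on the other side and nearer to Atic, at 68.2 kb. Among protein-coding genes 13.7% had 3 or more peaks within 100 kb, and 14.0% of those on chromosome 1 did.

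Cdh1 encodes E-cadherin, the cadherin of the epiblast epithelium (chromosome 8, 106603350 to 106670247). Its single peak, of 730 bp at 106507601 to 106508330, was 95.0 kb from the gene, just inside the limit. It lay 2.52 kb from Cdh3, the neighbouring cadherin gene, which encodes P-cadherin. No peak lay over Cdh1 or within 50 kb of it, and 51.6% of protein-coding genes had a peak as near as that of Cdh1. Cdh2, which encodes N-cadherin (chromosome 18, 16588877 to 16809246, 220 kb), stood just outside the limit, with its nearest peak at 112 kb. That peak, at 16921159 to 16922752, was 1594 bp wide, a width reached by 3.56% of all peaks, and the next peak was 690 kb away. Cdh2 was its nearest protein-coding gene. A peak as near or nearer was found for 55.7% of all protein-coding genes and for 68.2% of those over 100 kb.

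Epcam encodes an epithelial surface adhesion molecule (chromosome 17, 87635979 to 87651127). It had 1 peak within the limit, of 1058 bp, which lay 62.0 kb from the gene. There were 5 more peaks at 130 to 198 kb, all nearest to Calm2. On chromosome 17, 67.4% of genes had a peak within 100 kb and 54.4% had one as near as that of Epcam. Vim encodes vimentin, the intermediate filament protein of mesenchymal cells (chromosome 2, 13574311 to 13582826). It had the most distant nearest peak of the 10 genes, of 498 bp at 13413559 to 13414056, 160 kb away and inside Cubn. Of all protein-coding genes 64.8% had one as near or nearer.

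By role, 4 of the 5 EMT factors had a peak within 100 kb, with 7 peaks in all, and 3 of the 5 adhesion, matrix and filament genes did, with 5 peaks. The share of all protein-coding genes was 52.8%. Twist1, among the EMT factors, lies on chromosome 12, where the share was 91.2%. With 5 genes in each role, no difference between the roles is read from these counts. By length, a peak lay within 100 kb in 3 of 5 genes under 20 kb, against 47.9% of all such genes. It did so in 2 of 2 genes of 20 to 100 kb, against 56.1%, and in 2 of 3 genes over 100 kb, against 66.3%. The median distance to the nearest peak was 53.1 kb for the 10 genes, against 89.3 kb for all protein-coding genes. The 10 genes are longer, with a median span of 41.0 kb against 17.4 kb, and these distances are not matched for length. The windows of the 10 genes covered 2.71 Mb and held 4.43 peaks per Mb (95% exact Poisson interval 2.29 to 7.74, counting error only). That interval includes the 3.66 per Mb of the list as a whole, which also covers regions far from genes. It takes peaks as independent, though 30.3% of all peaks had another within 10 kb, and it is not a test of the chosen genes.

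**Figure D3:**
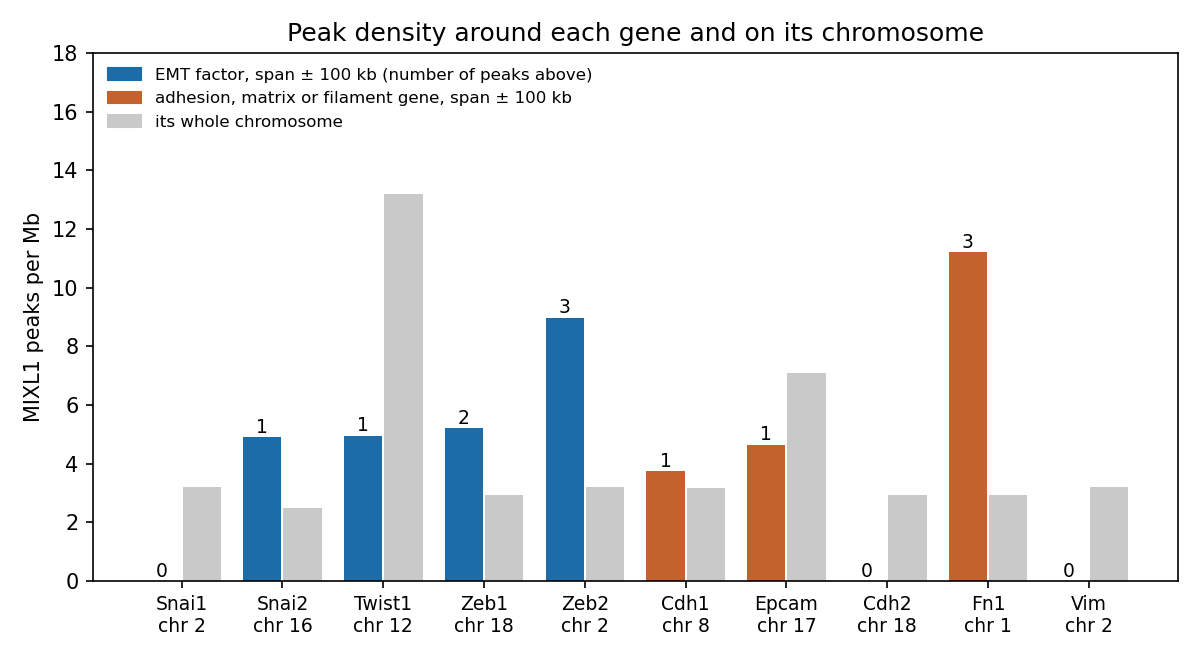
Peaks per Mb in the span ± 100 kb of each gene (coloured bars, number of peaks above) and on its whole chromosome (grey bars). Fn1 at 11.2 and Zeb2 at 8.98 per Mb stand above chromosomes at 2.92 and 3.20, while Twist1 and Epcam, like the 3 genes without a peak, stand below theirs; each coloured bar rests on 0 to 3 peaks.

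The 12 peaks were chosen by distance alone, without their width or surroundings. They were 339 to 1058 bp wide with a median of 658 bp, against 485 bp for all peaks on these chromosomes, and 8 of the 12 were wider than that value. When only peaks above the median width were counted, 7 of the 10 genes had a peak within 100 kb, against 32.2% of all protein-coding genes. Without the narrower peaks Zeb2 had 1 peak in place of 3, and Zeb1 had 1 in place of 2 and none over its span. None of the 12 had another peak within 10 kb, against 30.3% of all peaks that had one. Chromosome 12, which is dense in peaks, is part of that 30.3%, and the share without it was not taken. Of the 12 peaks only that of Twist1 lies on chromosome 12. Of the 12 peaks 9 had the listed gene as their nearest protein-coding gene, and the other 3, of Cdh1, Fn1 and Epcam, were nearer to another gene. By that measure 5 of the 10 genes (Snai2, Twist1, Zeb1, Zeb2 and Fn1) had a peak of their own within 100 kb, against 20.5% of all protein-coding genes. For 6 of the 12 peaks the gene was the only protein-coding one within 100 kb, against 31.1% of the peaks that had at least 1 such gene within that distance. These shares are not matched for gene length, and the part of gene length and gene spacing in these counts was not tested.

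Other genes of the transition were taken from a list of 87 protein-coding genes and 6 microRNA genes, grouped by role. A peak lay within 100 kb of 59 of the 87, or 67.8%, against 52.8% of all protein-coding genes. It lay over the span of 22, or 25.3%, against 12.6%. The listed genes are longer, with a median span of 36.2 kb against 17.4 kb. The listed genes under 20 kb had a peak within 100 kb in 20 of 31 cases, against 47.9% of all genes of that length. Those of 20 to 100 kb had one in 23 of 37 cases, or 62.2%, against 56.1%, and those over 100 kb in 16 of 19 cases, or 84.2%, against 66.3%. A peak over the span was found in none of the 31 shortest genes, against 4.06%, in 9 of 37 genes of 20 to 100 kb, against 14.7%, and in 13 of 19 genes over 100 kb, against 46.9%. Outside chromosome 12, 54 of 82 listed genes had a peak within 100 kb, against 51.6% of all genes outside it. Epithelial regulators, matrix genes, matrix proteases and signals are set below beside the length class of their median span. Epithelial regulators are also set beside the class under 20 kb. Each of these groups mixes genes of different lengths, so the shares are a rough guide.

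Among cadherins and catenins 8 of 10 genes had a peak within 100 kb and 5 had one over the span. The class has a median span of 104 kb and mixes lengths. Among all genes over 100 kb the shares were 66.3% and 46.9%, and among those of 20 to 100 kb 56.1% and 14.7%. The 5 with a peak over the span included the cadherin genes Cdh4, with 4 peaks within 100 kb, and Cdh6, with 3. The others were the junction genes Ctnna2 with 2, Ctnnd1 with 4 and Jup with 1. Ctnnd1 (71.9 kb) and Jup (29.0 kb) are under 100 kb. Ctnnb1, which encodes beta-catenin, had none, its nearest peak being 108 kb away. Among other epithelial junction and surface genes, with a median span of 28.0 kb, 16 of 20 had a peak within 100 kb. Their spans ran from 1.26 kb (Cldn3) to 549 kb (Pard3). The shares of all genes were 47.9% under 20 kb, 56.1% at 20 to 100 kb and 66.3% over 100 kb. Cldn3 and Cldn4 shared their only peak, and Krt8 and Krt18 their nearest, so the genes are not all independent. Tjp1, Pard3 and Ncam1, all over 100 kb, were among the 4 with a peak over the span. Krt19, a keratin gene of simple epithelia, had a peak 0.448 kb from its span. F11r, which encodes a tight-junction adhesion molecule, had 23 peaks within 100 kb but none within 50 kb, and the nearest of them was closest to Itln1. At least 23 peaks within 100 kb were found in 0.153% of protein-coding genes.

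Among other EMT factors 7 of 14 had a peak within 100 kb, close to the 52.8% of all protein-coding genes. Prrx1, a paired-related homeobox gene of mesenchyme, had 4 peaks, 2 of them over the gene, and the E-protein genes Tcf4 and Tcf12 had 3 each over theirs. Thus 3 of the 14 had a peak over the span, against 12.6% of all protein-coding genes, and Tcf4 and Tcf12 are over 100 kb. Gsc, an organiser homeobox gene that can drive EMT, had 10 peaks within 100 kb, the nearest at 0.295 kb. At least 10 were found in 0.818% of protein-coding genes, but Gsc lies on chromosome 12, where peaks are dense. Snai3, another SNAI gene, and Twist2 had their nearest peaks at 276 and 329 kb. Of the protein-coding epithelial regulators 5 of 10 had a peak within 100 kb and none had one over the span. Their median span was 20.8 kb, and spans ran from 4.90 kb (Elf3) to 131 kb (Grhl2). Among all genes under 20 kb the shares were 47.9% and 4.06%, and among those of 20 to 100 kb 56.1% and 14.7%. Grhl1, also on chromosome 12, had 6 peaks within 100 kb, and Elf3 had a peak at 0.626 kb. Esrp1 and Esrp2, splicing regulators of epithelial cells, had none within 100 kb.

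Matrix genes, with a median span of 75.9 kb, had a peak within 100 kb in 10 of 14 cases, against 56.1% of all genes of 20 to 100 kb. Peaks lay over 5 of the 14, which were Lamc1, Col4a1, Hspg2, Sparc and Vcan. A peak over the span was found in 14.7% of all genes of 20 to 100 kb and 46.9% of those over 100 kb. Lamc1, Col4a1 and Hspg2 are over 100 kb. Col4a2, beside Col4a1, had 4 peaks within 100 kb. Matrix proteases and their inhibitors, with a median span of 10.9 kb, gave 4 of 7, against 47.9% of all genes under 20 kb. A peak lay over 1 of the 7, Timp3, against 12.6% of all protein-coding genes. Signals that induce EMT, with a median span of 46.6 kb, gave 9 of 12, against 56.1% of genes of 20 to 100 kb. Peaks lay over 4 of the 12, against 14.7% of genes of 20 to 100 kb. These were Tgfb3, Tgfbr2, Fgfr1 and Met, the genes of a TGF-beta ligand and 3 receptors, and Met is over 100 kb. Tgfb3 had 8 peaks within 100 kb and Rhob, which encodes a small GTPase, had 6. Tgfb3, Rhob, Gsc and Grhl1 lie on chromosome 12, where peaks are dense.

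**Figure D4:**
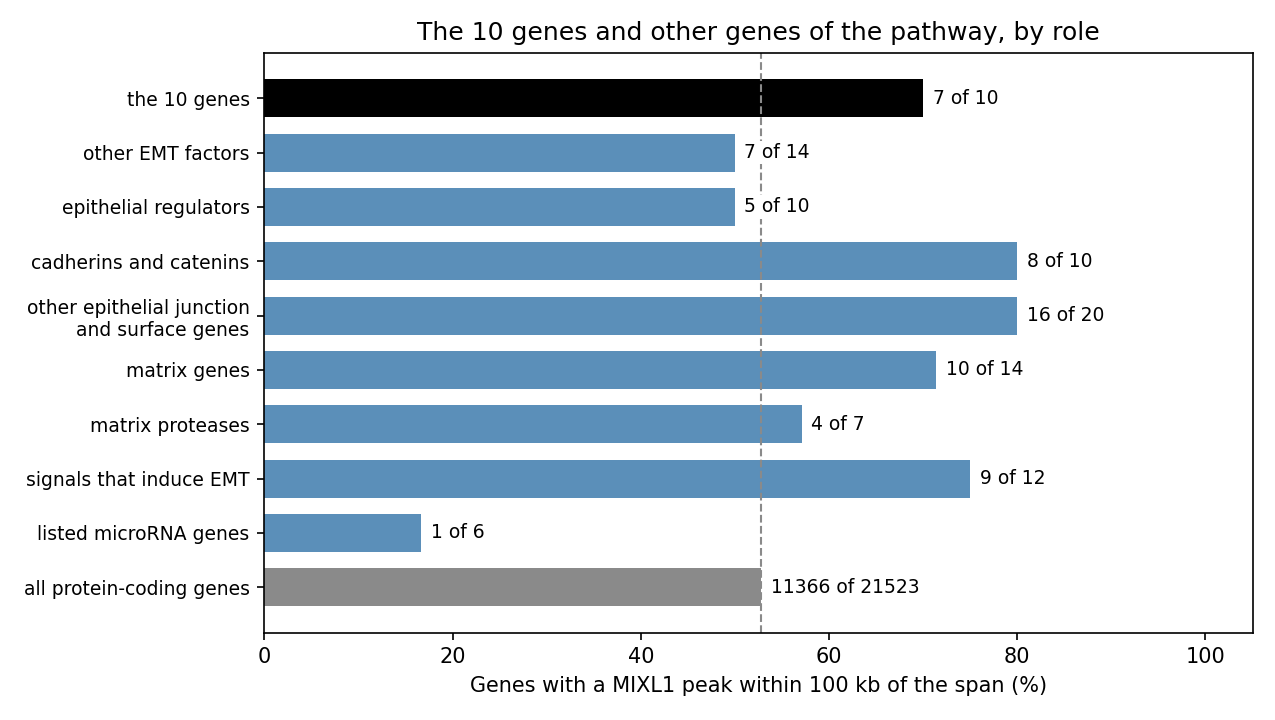
Share of genes (%) with a MIXL1 peak within 100 kb of the span, for the 10 genes, for the listed genes by role and for all protein-coding genes (dashed line at 52.8%), with counts at the bars. Cadherins and catenins (8 of 10) and other junction genes (16 of 20) have the longest bars, and 1 of 6 microRNA genes has a peak.

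MicroRNAs of the miR-200 family repress Zeb1 and Zeb2 and are repressed by them in turn, so their genes are the other side of that loop. None of the 5 family genes had a peak within 100 kb, against 50.7% of all 1228 microRNA genes. They stand in 2 clusters and are not independent: Mir200a, Mir200b and Mir429 on chromosome 4 shared a nearest peak at 156 to 158 kb, and Mir200c and Mir141 on chromosome 6 shared one at 107 kb. Mir205, another microRNA with Zeb targets, had 1 peak, 81.5 kb away. The mature sequences (RefSeq, GRCm38.p6, seed bases 2 to 8 in capitals) are shown to identify the family by its 2 seeds, the first 3 sharing AAUACUG and the last 2 AACACUG.
mmu-miR-200b-3p: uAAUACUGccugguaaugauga
mmu-miR-200c-3p: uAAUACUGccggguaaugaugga
mmu-miR-429-3p: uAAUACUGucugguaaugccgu
mmu-miR-200a-3p: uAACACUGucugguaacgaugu
mmu-miR-141-3p: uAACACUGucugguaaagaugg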

How the data were processed

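The submitters' processing notes name CASAVA 1.8.2, Bowtie2, SAMtools, MACS2 and the build mm10. The sources used here do not say how strictly peaks were called or whether replicates were pooled. The name of the deposited list may point to a p-value threshold and a blacklist filter, which no label spells out. The authors deposited 1 list of 9598 peaks with 3 columns (chromosome, start, end), and 9403 lay on the 20 chromosomes analysed. Positions are printed 1-based. Genes came from the RefSeq table of GRCm38.p6, without the 340 that start in the first 3 Mb of a chromosome, where unplaced scaffolds share positions. Distance is the gap between the nearest bases of peak and gene span, and 0 where they overlap. The table gives no exons, and strand was known only from promoter entries.

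The 10 genes, the pathway list and the windows were chosen with earlier results of these data known, so counts are set beside the same counts over all genes and no test was run. Pathway genes named are the 10 with the most peaks, those with a peak within 1 kb, and some others chosen after their values were seen. Distances were tested on simulated data with peaks planted at known positions. Python 3.11.15, numpy 2.4.6, pandas 2.3.3, scipy 1.17.1 and matplotlib 3.10.9 were used.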

Additional observations from a re-analysis of the deposited data

How the results depend on the processing

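The count of 7 genes with a peak within 100 kb was also 7 with peak centres, with the nearest gene end in place of the span, and with only the peaks above the median width. It was 5 within 50 kb or with only peaks whose nearest protein-coding gene is the listed one, and 10 within 200 kb. Within 200 kb the peaks numbered 23 in place of 12. With only the wider peaks Zeb2 had 1 peak in place of 3 and Zeb1 had 1 in place of 2, and the distance from Zeb1 to its nearest peak was 44.6 kb in place of 0. It was also 44.6 kb when measured from the nearest end of Zeb1, since the peak over the gene lies near its middle. With only the wider peaks 39 of the 87 listed pathway genes had a peak, in place of 59. The share of protein-coding genes with a peak, 52.8%, was 37.5% within 50 kb, 70.3% within 200 kb, 32.2% with only the wider peaks and 49.1% for genes of every type. No paired analysis was possible because the replicates enter through 1 common list, and for the same reason no replicate could be left out. A stricter threshold of the peak caller could not be applied, since the list has no score. Counting only the wider peaks does not replace it, because how width relates to the score is unknown. Depth is unknown, and a gene without a listed peak is not shown to be unbound.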

Other observations

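Within 1000 kb of the span the 10 genes had 3 to 18 peaks each. Epcam had 18, or 8.93 per Mb, against 7.09 per Mb on chromosome 17 as a whole. Twist1 had 17, or 8.49 per Mb, which is below the 13.2 per Mb of chromosome 12. Fn1 had 15, or 7.25 per Mb, against 2.92 per Mb on chromosome 1. Snai2, Cdh2 and Vim had 3 each, all below the density of their chromosomes, with 1.35 against 2.92 per Mb for Cdh2 and 1.49 against 3.20 per Mb for Vim. Zeb2 was also below, at 2.34 against 3.20 per Mb, unlike within 100 kb. Snai1 had 10 peaks, or 4.99 against 3.20 per Mb, though none lay within 100 kb. Zeb1 and Cdh1 were above, at 4.12 against 2.92 and 3.39 against 3.16 per Mb. Zeb1 had 8 of its 9 peaks within 500 kb and Zeb2 had all 5 of its peaks within 500 kb, whereas Fn1 had 4 of 15.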
